A study of Mus musculus with 2 samples.

Results

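The genes of the DNA replication origin and fork machinery were examined in LT-HSCs, long-term haematopoietic stem cells, which are marrow cells that renew the blood throughout life. The set holds 38 named genes of the 24203 genes on the array, chosen by name for their known roles in replication. Earlier results of these data were known when the genes were chosen. All 38 were found, on 82 transcript rows, and the 5 origin recognition genes, which carry older symbols in the files, were matched by gene ID. Cells were sorted from bone marrow of C57BL/6 mice aged 8 weeks. One group was cia-cGAS WT and the other cia-cGAS knockout, a line without the circular RNA cia-cGAS. Each group has 1 array and no replicate, so differences describe these 2 samples, and no test between the groups was possible. The sources used here do not give how many animals and cells each sample came from, or how the cia-cGAS locus was altered.

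A chromosome is copied from many origins. The origin recognition complex marks them, and CDC6 and CDT1 then load the ring of MCM proteins, the helicase that will unwind the DNA, in a step called licensing. In S phase the kinase CDC7 with DBF4, MCM10 and the GINS complex switch the helicase on. DNA polymerase alpha and its primase start each new strand, and polymerases delta and epsilon extend it while held by the ring-shaped clamp PCNA. Replication factor C loads the clamp, RPA covers the bared single strands, and FEN1 and LIG1 trim and join the short Okazaki fragments of the lagging strand. Dividing blood progenitors use all of these genes, and LT-HSCs are known for resting outside the cell cycle most of the time.

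Most replication genes read lower on the knockout array. Values are log2 intensities, and each difference is knockout minus wild type on that scale, taken from the brightest row of a gene. For each array a detection floor was drawn from rows of chemosensory receptors (olfactory, vomeronasal and taste) at their 95th percentile, which was 9.11 on the wild-type array and 8.97 on the other. Of the 38 genes, 26 lay above the floor on both arrays, 5 in the wild type alone, 0 in the knockout alone and 7 on neither array. A gene seen in the wild type alone can only differ downward, so counts are given for both kinds together and apart. Of the 31 genes above a floor, 9 (29.03%) had knockout levels at least 2-fold lower, and 0 at least 2-fold higher. Over all 10859 genes above a floor on either array, 4.06% were at least 2-fold lower and 5.53% at least 2-fold higher. Among the 26 replication genes above both floors, 8 (30.8%) were at least 2-fold lower, against 4.19% of the 9242 genes above both floors.

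The difference was broad and uneven. Of the 26 genes above both floors, 22 had a negative difference, against 53.6% of all genes above both floors. Their median difference was -0.49, and that of all genes above both floors was -0.04. With the 5 genes of the wild type alone included, the median was -0.52, a 1.43-fold lower level, or -0.48 with knockout values below the floor counted at the floor. As a measure of scatter within a gene, the differences of several rows of one gene varied with a pooled SD of 0.37 over 2895 genes with more than 1 row above both floors. By that measure 16 of the 26 genes were lower by more than the scatter between rows, 9 lay within it, and 1, Rpa3, was higher by more. The same count was not made over all genes, so it has no background to be read against. Rows are other probes for the same gene, some for transcripts of another span, so the scatter can hold differences between transcripts. They say nothing about the spread between mice.

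**Figure D1:**
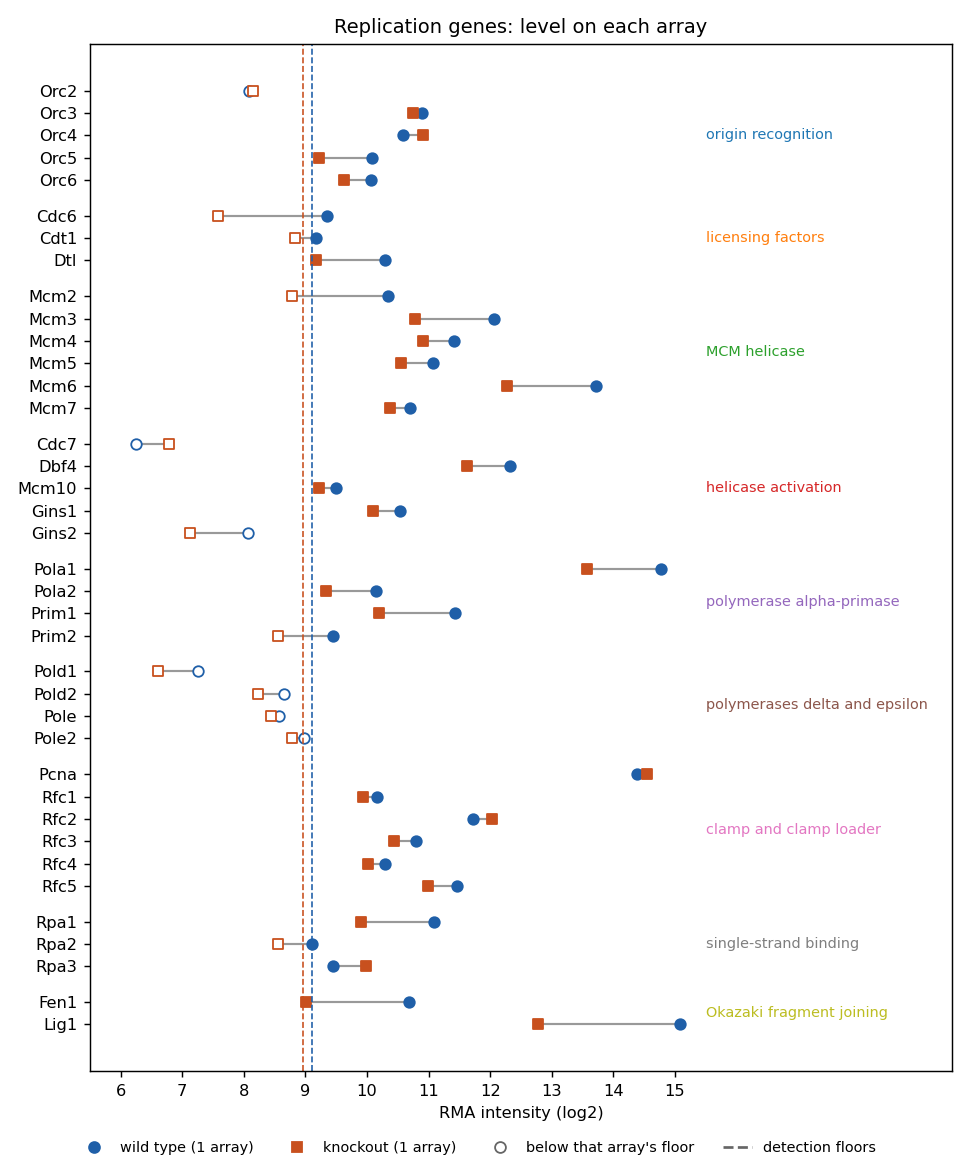
RMA intensity on a log2 axis for each of 38 replication genes, with the wild-type array as circles and the knockout array as squares, grouped by role; open symbols lie below the floor of their own array (dashed lines). The knockout square lies to the left of the wild-type circle for 32 of the 38 genes, counting the 7 below both floors, with the widest gap for Lig1. Among genes above both floors it does so for 22 of 26, against 53.6% of all such genes.

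The widest differences among genes above both floors belonged to those that finish the lagging strand. Lig1, which encodes the ligase that seals Okazaki fragments, read 15.08 on the wild-type array and 12.78 on the knockout array (gene ID 16881, MM9 chromosome 7, transcript from 13864174 to 13874779). It was 4.91-fold lower, and ranked 14 from the lowest of the 9242 genes above both floors. Its other row, for a transcript that spans 32526 bases of the genome where the brightest spans 10605, read 10.84 and 9.39 and differed by -1.45. Both rows of Lig1 were thus at least 2-fold lower, although they differed from each other by more than the usual scatter. Fen1, the nuclease that removes the flap ahead of ligation, read 10.69 on the wild-type array and 9.002 on the knockout array (gene ID 14156, MM9 chromosome 19, 10273628 to 10278413). That is 3.22-fold lower, with the knockout value just above its floor. The other row of Fen1 lay below both floors and differed by -1.06.

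The MCM helicase was lower in every subunit, by unequal amounts. Mcm6 read 13.71 on the wild-type array and 12.27 on the knockout array, a 2.71-fold lower level (gene ID 17219, MM9 chromosome 1, 130228166 to 130256241). Its other row, below both floors, differed by -0.59, and the rows averaged by -1.01. Mcm3 read 12.05 and 10.79, which is 2.41-fold lower. Mcm2 read 10.34 in the wild type and, with a knockout value below the floor, was at least 2.59-fold lower. These 3 subunits passed 2-fold, and the other 3 did not. Mcm5 read 11.07 and 10.56, a difference of -0.52, and its other row differed by -0.19. Mcm4 read 11.42 and 10.92, a difference of -0.50. Mcm7 read 10.70 and 10.37, a difference of -0.33, which lies within the scatter between rows. The subunits form 1 hexamer with 1 copy of each, yet their differences ran from -1.44 to -0.33 with Mcm2 counted at the floor, and the median was -0.89 over the 6 and -0.52 over the 5 above both floors.

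Cdc6 and Cdt1, which help to load the helicase, had levels near the floor in the wild type. Cdc6, the loader that joins the origin recognition complex, read 9.35 in the wild type and 7.58, below the floor, in the knockout. It was therefore at least 1.31-fold lower, and its dimmer row, below both floors, differed by -0.90. Cdt1, which brings the MCM ring to the origin, read 9.17 and 8.83, the latter below the floor, and was at least 1.15-fold lower. Neither bound reached 2-fold, so the size of these differences is not settled by the array. Dtl, grouped here with the licensing factors, encodes the ubiquitin ligase adaptor that removes CDT1 once replication has begun. It read 10.29 and 9.18 and was 2.17-fold lower, with differences of -1.30 and -0.22 in rows below both floors.

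Origin recognition genes lay on both sides of 0, and none reached 2-fold. Orc5 read 10.09 on the wild-type array and 9.22 on the knockout array, a difference of -0.87 that no second row could check. Orc6 read 10.06 and 9.62, a difference of -0.44, and its other rows differed by -0.92 and, below both floors, by 0.40. Orc3 read 10.89 and 10.75, a difference of -0.14, but its other rows above the floor differed by 0.32 and 0.14, so no direction can be given for it. Orc4 read 10.59 and 10.91 and was 1.25-fold higher, with rows from -0.10 to 0.32. Orc2 lay below both floors. The median over the 4 genes above the floors was -0.29, and it became 0.09 when the floor was raised to the 99th percentile of receptor rows, which left fewer genes.

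Genes of helicase activation were lower by less than 2-fold where they could be measured. Dbf4, the regulatory partner of CDC7, read 12.33 on the wild-type array and 11.62 on the knockout array, and both of its rows differed by -0.71. Gins1 read 10.54 and 10.09, a difference of -0.45. Mcm10, which helps the activated helicase to move, read 9.50 and 9.22, a difference of -0.28, and its 4 rows ran from -1.02 to -0.05. Cdc7 and Gins2 lay below both floors, so no fold is given for the kinase or for the second GINS gene.

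All 4 genes of polymerase alpha and its primase were lower, and the 3 above both floors ranged from -1.24 to -0.81. Pola1, the catalytic subunit, read 14.77 on the wild-type array and 13.56 on the knockout array and was 2.30-fold lower (gene ID 18968, MM9 chromosome X, 90869121 to 90877494). Prim1, the primase subunit that makes the RNA primer, read 11.43 and 10.20 and was 2.36-fold lower. Pola2, the accessory subunit, read 10.15 and 9.34, a difference of -0.81, and each of its 6 rows was lower. Its other rows above both floors differed by -0.55 and -0.32, and the rows averaged by -0.44. Prim2 read 9.45 in the wild type and, with a knockout value below the floor, was at least 1.40-fold lower. The median over the 4 was -1.01 with Prim2 counted at the floor.

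The 4 core genes of the elongating polymerases lay below both floors. Pold1 and Pold2, subunits of polymerase delta, and Pole and Pole2, subunits of polymerase epsilon, were below them in every row. Below the floor the brightest row of Pole differed by -0.12 and the other 4 by -1.74 to -0.95. The dim rows do not settle whether these genes changed. Accessory subunits of the same enzymes were named here after their values were seen, and Pole3, Pole4 and Pold3 lay above both floors. The polymerase epsilon genes Pole3 and Pole4 differed by -1.44 and 0.18, and Pold3 of polymerase delta by -0.68. Pold4, also of polymerase delta, passed the knockout floor alone. It read 8.44 on the wild-type array and 9.05 on the knockout array, a difference of 0.61 as read.

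The clamp and its loader were close to level. Pcna, which also serves DNA repair, read 14.38 on the wild-type array and 14.55 on the knockout array, and its other row read 14.45 and 14.18. The differences of 0.17 and -0.27 have opposite signs and both lie within the scatter between rows. Among the loader genes Rfc5 read 11.47 and 10.99, a difference of -0.48, the only one of the 5 beyond that scatter, with 0.23 in a row below both floors. Rfc3 differed by -0.36, Rfc4 by -0.27 (0.12 with its rows averaged) and Rfc1, the large subunit, by -0.23. Rfc2 read 11.72 and 12.04 and was 1.24-fold higher. The median over Pcna and the 5 loader genes was -0.25, none of the 6 reached 2-fold, and all lay above both floors.

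The 3 genes of RPA differed from one another although they encode a single trimer. Rpa1, its large DNA-binding subunit, read 11.10 on the wild-type array and 9.91 on the knockout array and was 2.28-fold lower, with -0.78 in its dim row. Rpa2 read 9.11, at the very floor, and 8.55, and was at least 1.11-fold lower. Rpa3, the smallest subunit, read 9.44 and 9.98 and was 1.45-fold higher, on 1 row.

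Set against each other by role, with knockout values below the floor counted at the floor, the medians were -1.99 for Okazaki fragment joining, -1.01 for polymerase alpha and primase, -0.89 for the MCM helicase, -0.45 for helicase activation, -0.39 for licensing factors, -0.29 for origin recognition, -0.25 for the clamp and its loader and -0.14 for RPA. The places of licensing factors and RPA are not fixed, since their medians were -1.12 and -0.56 with the values below the floor taken as read. The -1.12 is the value of Dtl, whose product removes CDT1. By their brightest rows, the 3 polymerase alpha-primase genes above both floors (-1.24 to -0.81) did not overlap the clamp and loader (-0.48 to 0.31). Prim2, bounded at -0.48, all but touched the clamp and loader, and another row of Pola2 above both floors, at -0.32, lay among them. The MCM helicase overlapped the clamp and loader through Mcm7. Groups hold from 2 to 6 genes, and the differences between roles were not tested.

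**Figure D2:**
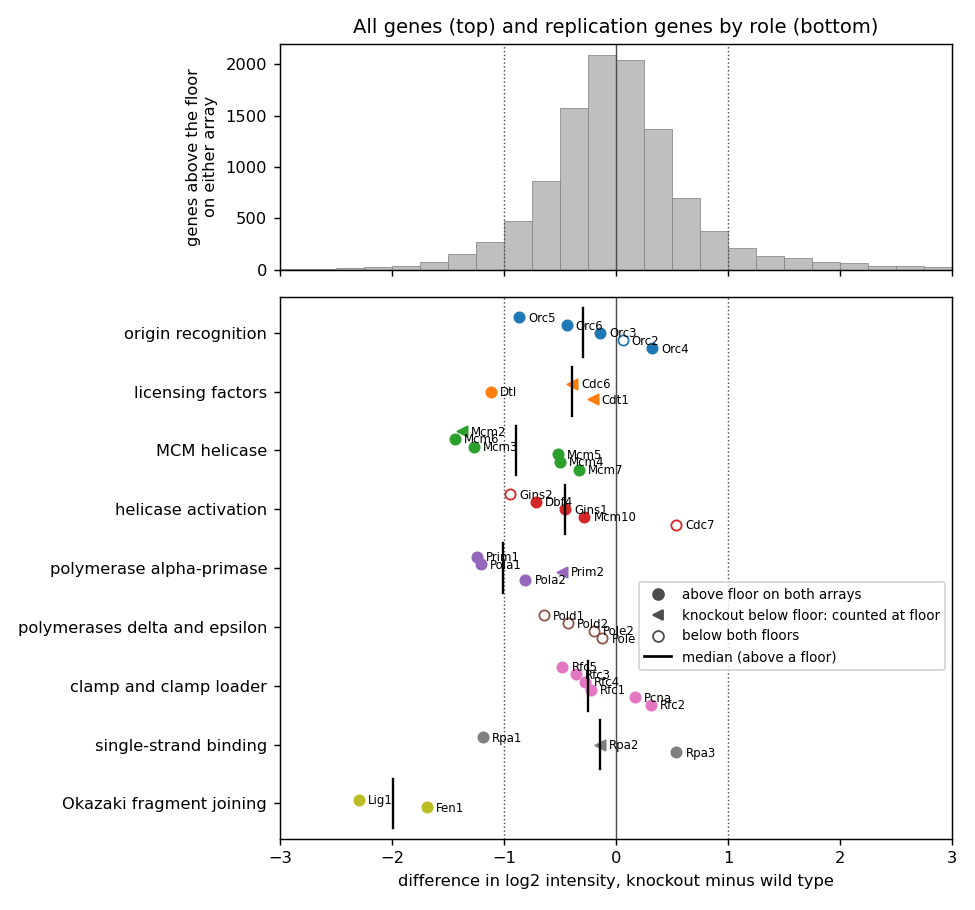
Top, histogram of the log2 difference, knockout minus wild type, for genes above the floor on either array, on an axis cut at 3 in either direction. Bottom, the same difference for each replication gene by role, with triangles for genes whose knockout value, below the floor, is counted at the floor, open circles for genes below both floors and a bar at the median of those above a floor; dotted lines mark 2-fold. All genes centre near 0, with a median of -0.02. Left of 0 lie 27 of the 31 replication genes above a floor, against 51.6% of all genes above a floor. The 27 include 5 genes seen in the wild type alone, which can only lie left.

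Of the 38 genes, 13 have 1 row, among them Mcm2, Mcm3, Pola1 and Prim1, which were at least 2-fold lower with no second row to check them. The other 25 have several rows, which gives a check on single probe sets. In 16 of them every row was lower in the knockout, in 9 the rows had both signs, and in 0 was every row higher. Over all 82 rows, 68 had a negative difference. Among the 10 genes with several rows above a floor, 7 were lower in each such row. The other 3 were Orc3, Orc4 and Pcna. These row counts were not made over all genes, many of the rows lay below both floors, and rows of one gene are not independent. With all rows averaged for each gene, 6 genes were at least 2-fold lower, all of them among the 9, and Dtl, Fen1 and Rpa1 no longer were. The averaged differences of Dtl and Rpa1 were -0.88 and -0.99, while that of Fen1 was -1.37 with an averaged knockout level below the floor. With the floor at the 99th percentile of receptor rows 5 of the 9 remained, without Dtl, Fen1, Mcm2 and Rpa1.

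**Figure D3:**
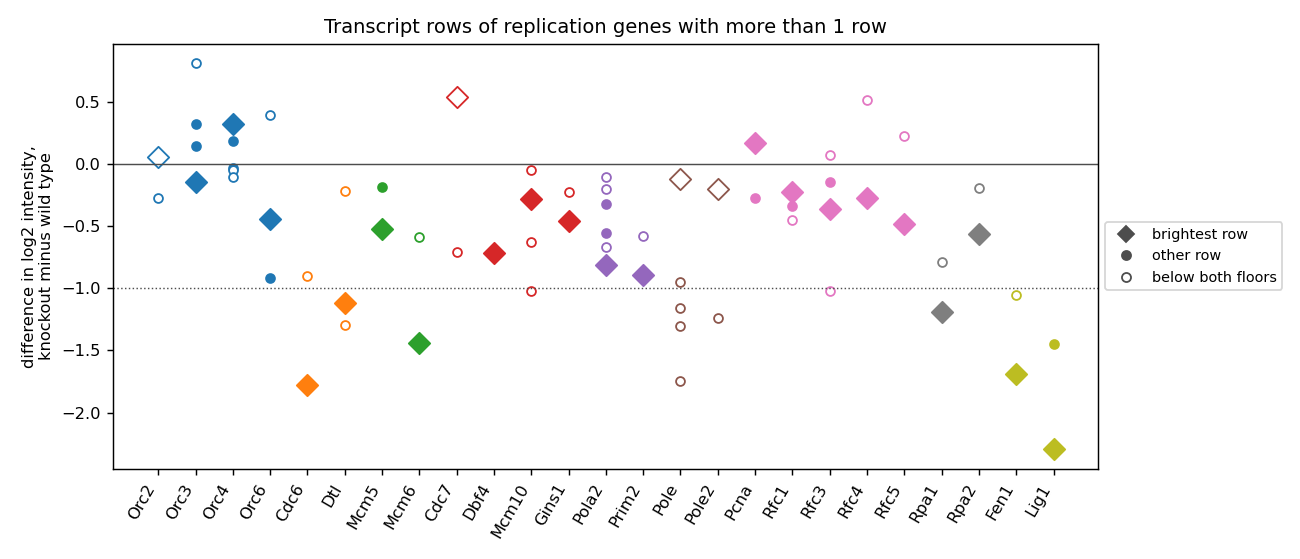
Log2 difference, knockout minus wild type, of each transcript row for 25 replication genes with more than 1 row; diamonds mark the brightest row, which stands for the gene, and open symbols rows below both floors. Rows of Lig1, Fen1, Cdc6 and Rpa1 all lie below 0, while those of Orc3, Orc4, Pcna and Rfc4 fall on both sides of it.

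Promoter sequences were set beside these values because E2F factors, with the retinoblastoma proteins that hold them in check, are known to control many replication genes at entry into S phase. RefSeq sequence on GRCm38.p6, from 250 bases before to 50 after a start site, matched 32 of the 38 genes, with 41 promoters; Gins1, Gins2, Mcm4, Pole, Prim2 and Rfc2 had no entry. Forms of the E2F motif were searched as TTTCCCGC and TTTGGCGC on both strands (GCGGGAAA and GCGCCAAA on the other strand). One or the other stood in 12 of the 32 genes (37.5%), against 1.80% of all 27025 genes in the table and 3.28% of the 7623 of these above a floor on either array. Promoters of the replication genes were also richer in G and C, with a median of 62.3% against 52.7% over all promoters. The NF-Y motif CCAAT stood in 19 of the 32 (59.4%), against 43.2% of the genes above a floor. The CHR motif TTTGAA stood in 5 (15.6%), against 15.4%. No motif overlapped another in the promoters of the replication genes.

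The promoter of Mcm6 is shown whole up to its start site, since it carries the G-rich form at 2 places and Mcm6 was among the genes that differed most. For the other 11 genes with a match, 30 bases around the motif are shown. Sequences run 5′ to 3′ on the strand of the gene, and capitals mark the E2F motif on either strand.
Mcm6 (chr1:128359706-128359955, minus strand): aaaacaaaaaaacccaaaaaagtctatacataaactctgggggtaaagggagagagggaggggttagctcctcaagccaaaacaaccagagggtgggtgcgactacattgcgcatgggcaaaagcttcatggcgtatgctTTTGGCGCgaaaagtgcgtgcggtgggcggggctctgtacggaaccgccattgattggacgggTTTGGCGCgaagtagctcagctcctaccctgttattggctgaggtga
Cdc6 (chr11:98908002-98908031, plus strand): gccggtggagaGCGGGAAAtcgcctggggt
Cdt1 (chr8:122568035-122568064, plus strand): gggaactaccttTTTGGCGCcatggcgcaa
Dtl (chr1:191575534-191575563, minus strand): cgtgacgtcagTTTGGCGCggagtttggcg
Orc3 (chr4:34614965-34614994, minus strand): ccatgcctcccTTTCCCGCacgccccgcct
Mcm3 (chr1:20820266-20820295, minus strand): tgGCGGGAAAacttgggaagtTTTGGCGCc
Mcm5 (chr8:75109349-75109378, plus strand): caagaactttcGCGCCAAAacgtccagcct
Mcm7 (chr5:138172030-138172059, minus strand): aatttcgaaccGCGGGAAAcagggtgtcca
Pola1 (chrX:93632275-93632304, minus strand): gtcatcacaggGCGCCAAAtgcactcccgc
Pold1 (chr7:44548766-44548795, minus strand): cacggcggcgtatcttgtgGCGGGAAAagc
Pole2 (chr12:69228162-69228191, minus strand): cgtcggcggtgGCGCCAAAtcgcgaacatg
Rfc3 (chr5:151651190-151651219, minus strand): ctttcgcgctcGCGGGAAAactctactgtc

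A match describes letters in a window and does not show that a factor binds there. Of the 6 genes with the G-rich form that lay above a floor, Mcm6, Mcm3, Pola1 and Dtl were at least 2-fold lower and Mcm5 and Cdt1 were not, with a median of -1.16. Of the 21 genes above a floor without it, 5 were at least 2-fold lower. With knockout values below the floor counted at the floor, these 21 had a median of -0.39 and a range of -2.30 to 0.54. On the same count the 5 genes with the C-rich form had a median of -0.36, from Mcm3 at -1.27 to Orc3 at -0.14. Lig1 and Fen1, the genes with the widest differences among those above both floors, had no match to either form in this window. Mcm2, Prim1 and Rpa1, also at least 2-fold lower, had none either. With either E2F form, 4 of 10 genes above a floor were at least 2-fold lower, and without one 5 of 17. For the CHR motif these counts were 2 of 3 with it and 7 of 24 without, and for NF-Y 7 of 17 and 2 of 10. The same split was not made over all genes. The number of genes is small and these differences were not tested.

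**Figure D4:**
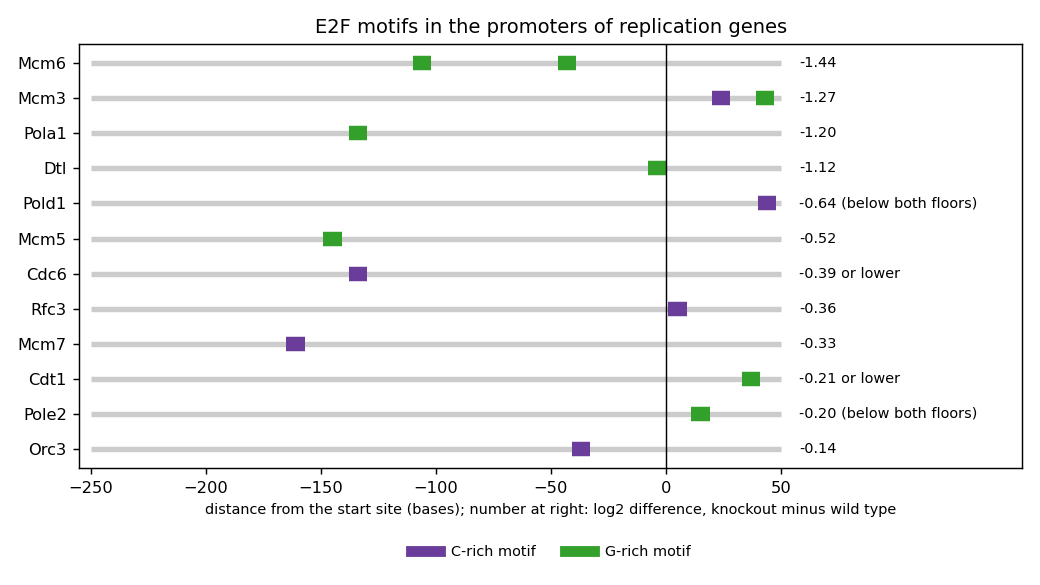
Position of E2F motifs from 250 bases before to 50 after the start site (vertical line) for 12 replication genes, ordered by log2 difference, knockout minus wild type, given at right ("or lower" where the knockout value was counted at the floor); purple marks the C-rich and green the G-rich form. Motifs lie on both sides of the start site. Of the 12 genes, Mcm6, Mcm3, Pola1 and Dtl are past 2-fold and carry the G-rich form. That form also stands in Mcm5, Cdt1 and Pole2, which were not called 2-fold lower.

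Further genes of DNA replication, listed by function with earlier results of these data known, also tended lower. Of 40 listed, 39 were measured and 29 lay above a floor. Of the 29, 5 (17.2%) were at least 2-fold lower, against 4.06% of all genes above a floor. Only 1 was at least 2-fold higher, against 5.53% of all genes above a floor. The difference was below 0 in 22 of the 29, against 51.6% of all genes above a floor, with a median of -0.59. Tipin, a fork protection gene, read 11.12 on the wild-type array and 9.32 on the knockout array and was 3.47-fold lower, with -0.81 in its other row. Its binding partner Timeless, named after its value was seen, differed by 0.08. Clspn, which links the fork to the checkpoint kinase, was 3.12-fold lower, and its other rows above the floor differed by -2.02 and -1.07. Dscc1, of an alternative clamp loader, was 2.91-fold lower, the polymerase epsilon gene Pole3 2.72-fold and Gmnn, whose product geminin restrains CDT1, 2.22-fold. Mcmbp, which binds MCM proteins, read 9.63 and 10.98 and was 2.56-fold higher from its brightest row, its other rows differing by 0.37 and 0.43. The next highest, Cul4b, differed by 0.85, and Etaa1 was at least 1.42-fold higher.

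Markers of other marrow cells also differed between the arrays. Of 12 B lineage markers measured, 9 lay above the wild-type floor and 5 above the knockout floor, 7 were at least 2-fold lower, and their summed intensity was 22887 in the wild type against 4646. Cd79a and Igll1 were among those below both floors. Of 12 erythroid markers, 9 and 8 lay above the floor, 3 were at least 2-fold lower, and the sums were 109716 and 86986, with Klf1, Epor and Car1 below both floors. Of 12 neutrophil markers, 11 lay above the floor on each array, 2 were at least 2-fold higher, and the sums were 180448 and 242161. Of 13 stem cell markers measured, 8 lay above the wild-type floor and 10 above the knockout floor, 0 passed 2-fold, and the sums were 31510 and 34797. Kit and Ly6a lay above both floors, but Procr and Slamf1, which are used to define LT-HSCs, were among those below both. In whole samples fewer cells of a dividing type and less RNA per cell cannot be told apart, and the part of these other cells in the differences of the replication genes was not tested.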

How the data were processed

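Expression was measured on single-colour NimbleGen arrays, 1 per genotype, labelled with Cy3. The deposited intensities are linear RMA summaries, per the submitters' processing notes, which give no version. Each of the 82 rows used here comes from 3 probes. RMA equalises the arrays, so each difference is relative to the other genes. Transcripts are placed on MM9 per the file headers, with the first base's number not stated. Intensities were put on the log2 scale with Python 3.11.15 and pandas 2.3.3. Symbols were updated by gene ID from a RefSeq table of GRCm38.p6, for 5650 of 41886 named rows. The brightest row stood for a gene. Where 1 array lay below its floor, drawn from 1029 receptor rows, a fold is the bright value against that floor, written "at least". No fold is given below both floors. All 38 genes are named; other replication genes are named at 2-fold or more, or as the most extreme, with exceptions marked. The genes and lists were chosen with earlier results of these data known. The calling of 2-fold differences was tested on simulated data, with larger shifts on genes well above the floor and little added noise. That check does not cover calls near the floor or near 2-fold. The number of arrays limits the precision.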

Additional observations from a re-analysis of the deposited data

How the results depend on the processing

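Differences have 1 array on each side, so no alternative leaves out a replicate, and no paired analysis was possible because each group has 1 array. Results at 2-fold, medians and single differences were recomputed with other floors, with rows averaged or their median taken, after centring on a loess curve with a span of 0.3, and from the series-wide table, which matched the array files. After loess centring 9 replication genes were again at least 2-fold lower, and all 38 kept the sign of their difference. With rows averaged, 5 genes changed sign (Cdc7, Orc2, Orc3, Pcna and Rfc4). The count of replication genes at least 2-fold higher was 0 in every setting tried. The count lower was 5 with the floor at the 99th percentile of receptor rows and 2 past 3-fold. The median for origin recognition became 0.0890 and that for RPA -1.19 at that higher floor. Licensing factors came to -0.35 with rows averaged and to -0.39 when low values were raised to the floor, where RPA came to -0.14. The MCM median was -0.52 over genes above both floors, a setting chosen after seeing the data. Of the other replication genes, 14 were lower and 2 higher past 1.5-fold, and 2 lower and 0 higher past 3-fold. Their count higher was also 0 at the higher floor, with rows averaged and with the median of rows. Shares of all genes past 1.5-fold and 3-fold, or at the higher floor, were not computed, so counts in those settings have no background to be read against. Within 200 bases before the start, 3 of the 32 genes held the C-rich E2F form, 4 the G-rich form, 7 either and 3 the CHR motif. These are 9.4%, 12.5%, 21.9% and 9.4%, against 1.65%, 0.695%, 2.32% and 10.4% of the genes above a floor.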
